A study of Mus musculus with 18 samples.

Results

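The clustered histone genes were followed in mouse whole blood 6 hours after gamma irradiation. Members were all non-control probes whose gene name in the array files started with Hist1h, Hist2h, Hist3h or Hist4h, which gave 44 of 41174 probes, under 34 of 27962 gene names. Of these, 30 probes lie in the Hist1 cluster on chromosome 13, 7 in Hist2 on chromosome 3, 5 in Hist3 on chromosome 11 and 2 in Hist4 on chromosome 6. The scanner software found the signal of 38 of them, under 32 names, well above background on 5 or more of the 18 arrays, against 22047 of all 41174 probes. These 38 comprise 5 probes for the linker histone H1, 13 for H2A, 10 for H2B, 3 for H3 and 7 for H4.

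Blood came from 18 male C57BL/6N mice aged 8 to 12 weeks, each measured on 1 Agilent 1-colour array. Sham-treated mice (0 Gy) numbered 7, and mice exposed to a cesium gamma source numbered 5 at 2 Gy and 6 at 8 Gy. RNA was taken with the RiboPure kit from 5, 4 and 6 of these mice respectively, and with the PAXgene kit from 2 sham mice and 1 mouse given 2 Gy. All samples were whole blood drawn by cardiac puncture, with globin RNA removed before labelling, so the mixture of blood cells, not a sorted cell type, was measured.

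Histones are the proteins that package DNA: an octamer of H2A, H2B, H3 and H4 forms the nucleosome core, and H1 binds the linker between cores. Most genes of the clusters are copied during S phase, when new DNA has to be packaged, and their messages end in a conserved stem-loop bound by the protein Slbp in place of a poly(A) tail. Some of these genes also give polyadenylated messages in cells that have stopped dividing. Circulating blood consists mainly of non-dividing cells, and platelets and red cells carry RNA without a nucleus.

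Because many copies of a histone gene are nearly identical, the probes themselves set which genes can be told apart. The probes below are shown because their signals count as separate members although they share long stretches. They are written 5′ to 3′ as the array files give them, and capitals mark bases that differ from the first probe of the set or lie outside the stretch it covers.
Hist1h2bk: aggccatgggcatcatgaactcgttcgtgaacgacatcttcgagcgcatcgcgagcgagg
Hist1h2bm: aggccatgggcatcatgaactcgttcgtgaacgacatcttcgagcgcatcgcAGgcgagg
Hist3h2bb: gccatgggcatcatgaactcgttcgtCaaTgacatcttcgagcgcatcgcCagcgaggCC
Hist1h2af: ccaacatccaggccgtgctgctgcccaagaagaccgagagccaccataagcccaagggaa
Hist1h2aa: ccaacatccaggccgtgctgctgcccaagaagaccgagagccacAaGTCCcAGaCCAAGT
Hist1h4f: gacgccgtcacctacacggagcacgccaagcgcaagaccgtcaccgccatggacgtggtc
Hist1h4d: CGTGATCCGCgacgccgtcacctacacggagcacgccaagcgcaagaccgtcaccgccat
Hist2h4: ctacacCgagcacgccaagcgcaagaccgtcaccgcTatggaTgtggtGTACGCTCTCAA
The Hist1h2bk and Hist1h2bm probes differed at 2 of 60 bases and shared an unbroken run of 52, and the Hist3h2bb probe differed from the first at 3 of 58 aligned bases. The Hist1h2af and Hist1h2aa probes shared 44 bases, and the Hist1h4f and Hist1h4d probes 50. Joining members that shared an unbroken run of at least 30 bases left 34 sequence groups among the 38 probes. The Hist3h2bb and Hist2h4 probes, though close to others shown, stayed groups of their own under this rule. Signals within such a group cannot be assigned to a single gene, and these probes are not independent measurements. Signals of the 14 probes listed for 2 or more RefSeq transcripts may also come from more than 1 gene. Of 38 members with a gene strand to compare, 6 lie on the strand opposite the gene of their name.

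A probe with a sequence of its own is that of Hist1h1e, chr13:22987640-22987699 on the minus strand of the build mm7, which shared at most 9 bases with any other member. It is shown because its fitted change lay near 0.
Hist1h1e: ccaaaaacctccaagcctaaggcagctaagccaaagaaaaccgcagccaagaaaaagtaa
The stem-loop itself was held by few probes. Over all 41174 probes, 14 (0.034%) held the 10 bases of its first arm and loop or of its loop and second arm, and 3 of these were members. Windows of 30 bases from these 3 are shown with the matched stretch of the stem-loop in capitals.
Hist1h2ab: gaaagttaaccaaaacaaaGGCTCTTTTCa
Hist1h2ae: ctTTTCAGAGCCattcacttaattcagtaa
Hist1h3a: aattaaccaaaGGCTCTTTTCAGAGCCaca
The Hist1h3a probe held all 16 bases of the stem-loop. In the others only the 10 bases searched for are in capitals, and adjoining stem-loop bases are in small letters.

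Some arrays stood apart from their dose group. B cell markers, a mean over 8 genes relative to the sham mean on the log2 scale, lay at -2.21 in 0 Gy replicate 5 and from -0.08 to 1.03 in the other sham mice, against -4.39 to -2.13 at 2 Gy. Neutrophil markers (7 genes) lay at 2.01 in the same sham mouse and at most 0.26 in the other sham mice. The array labelled 8 Gy replicate 1 had the highest B cell level of its group, -1.28, where the other five lay from -4.63 to -3.66. Array brightness also moved with dose: the 75th percentile of the processed signal was 138 to 425 at 0 Gy, 46.4 to 186 at 2 Gy and 58.4 to 232 at 8 Gy. By B cell markers the first array lay in the 2 Gy range and the second between the other sham and the other irradiated arrays. Whether either is mislabelled was not tested, and the labels of both are left in doubt. Both arrays were kept as labelled, every change by dose below rests on that, and the counts of calls are given with and without them. The labelled tissue was checked on 7 erythroid and 7 platelet markers, and the probe of each was well above background on all 18 arrays. For each gene the probe with the highest mean past the filter was taken, which favours this outcome. The check is therefore weak and cannot tell blood from other tissues that hold blood cells.

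Blood of mice given 8 Gy was compared with sham blood first. Clustered histone probes were mostly higher after 8 Gy: 14 of 38 passed the test as higher and 0 as lower, and 37 of 38 had a fitted log2 fold change above 0. Their median log2 fold change was 1.01, against 0.07 over all 22047 probes tested. Across the array, 9.98% of probes passed (limma, adjusted p under 0.05), 5.98% as higher and 4.01% as lower. Of the 38 members, 33 had an unadjusted p under 0.05, against 31.3% of all probes. By class, 6 of 13 H2A, 5 of 10 H2B and 3 of 7 H4 probes rose, and 0 of 5 H1 and 0 of 3 H3 probes passed.

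Many members sat close to the threshold. Hist1h2bk (A_52_P388224) passed with an adjusted p of 0.0495, and its near-twin Hist1h2bm missed with 0.0504. Leaving out single arrays gave 1 to 31 calls, 31 without 0 Gy replicate 5 and 24 without 8 Gy replicate 1. In these 2 fits 4431 and 4091 of all probes passed. There were 5 to 8 without any 1 of 0 Gy replicates 3, 6 or 7 or 2 Gy replicates 1 or 2. Over all probes 1225 to 1612 passed there. When any 1 of 0 Gy replicates 1, 2 or 4, 2 Gy replicate 5 or 8 Gy replicates 2 to 6 was left out, 481 to 1144 of all probes passed. Only 1 member was then left. That member was each time A_52_P559748, named Hist1h2bc, which kept its call in 29 of 31 alternatives. As described below, it was mostly not well above background in sham mice and its gene is uncertain. All 14 called members also passed when 0 Gy replicate 5 or 8 Gy replicate 1 was left out. Among them were Hist1h2be, Hist1h2ba, Hist1h2ac, Hist1h2bk (A_52_P388224), Hist3h2bb, Hist2h2ac, Hist1h2aa and Hist2h4. The log2 fold changes of these named probes were 1.34 to 1.72 without 0 Gy replicate 5 and 1.19 to 1.75 without 8 Gy replicate 1. Over the fits without single arrays the members' median ran from 0.83 to 1.27, and 481 to 4431 of all probes passed. With array brightness as a covariate 0 members and 0 of all probes passed, with the members' median at 0.79.

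**Figure D1:**
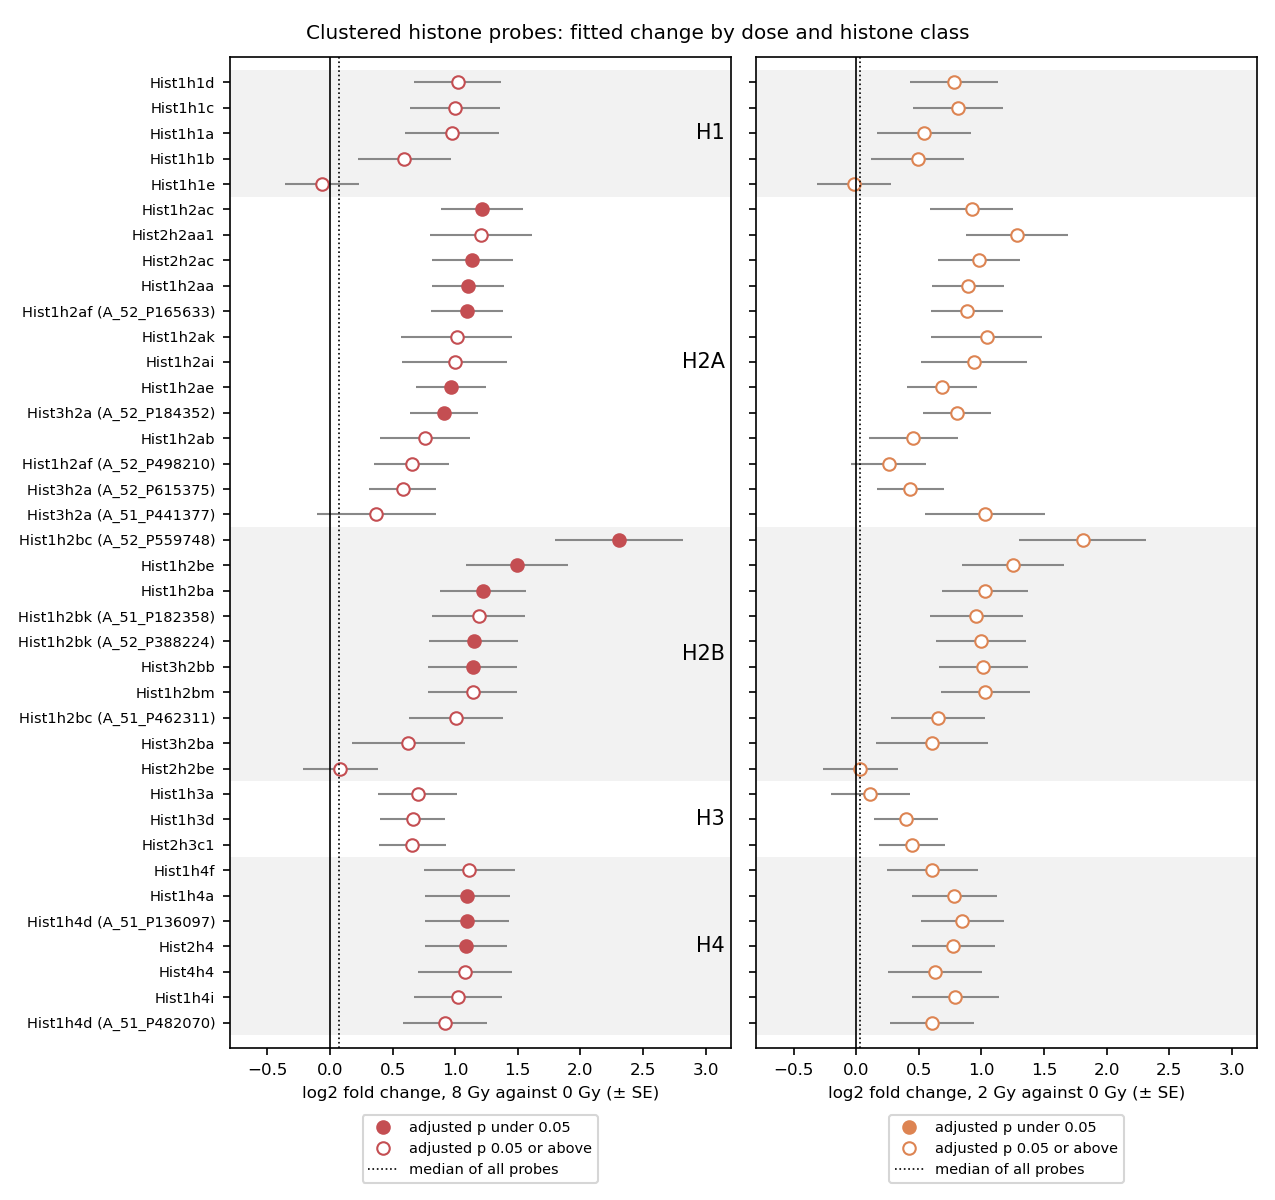
Fitted log2 fold change of each of the 38 clustered histone probes, 8 Gy against 0 Gy (left) and 2 Gy against 0 Gy (right), with standard error bars; filled points passed an adjusted p of 0.05 and the dotted line is the median of all probes. Nearly all points lie right of 0 at both doses, 14 are filled at 8 Gy and 0 at 2 Gy, and Hist1h1e and Hist2h2be lie at 0.

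Linker histones came first. Hist1h1c encodes H1.2, a main somatic linker histone. Its level, as log2 signal relative to the array's 75th percentile, was 5.71 at the lowest, 7.23 at the median and 8.01 at the highest in sham mice. At 2 Gy it read 7.92, 8.12, 6.70, 8.28 and 8.10, and at 8 Gy 7.03, 8.04 and 8.43 as lowest, median and highest. The dose groups overlapped: the highest sham mouse, replicate 5, lay above 2 of the 5 mice at 2 Gy and 3 of the 6 at 8 Gy, and 2 Gy replicate 3 and 8 Gy replicate 1 lay below the sham median. The log2 fold change at 8 Gy was 1.00 ± 0.36 (SE), with an adjusted p of 0.0778, and it passed without 0 Gy replicate 5 (1.23, adjusted p = 0.0234) or without 8 Gy replicate 1 (1.18, adjusted p = 0.0329). Hist1h1d (H1.3, probe A_52_P10683) had 1.02 ± 0.35 and an adjusted p of 0.0662, and Hist1h1a and Hist1h1b had 0.97 ± 0.37 and 0.59 ± 0.37.

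The Hist1h1e probe, for the linker histone H1.4, had a fitted change near 0, and its difference from the other linker probes was not tested. Sham mice lay at -0.69, 0.20 and 0.95 (lowest, median, highest), the 2 Gy mice at 0.10, 0.06, 0.59, 0.09 and -0.10, and the 8 Gy mice at -0.26, 0.02 and 0.91. All values of both irradiated groups lay inside the sham range. Its log2 fold change was -0.07 ± 0.30 at 8 Gy (adjusted p = 0.901) and -0.02 ± 0.30 at 2 Gy, the only negative values among the 38 members in either comparison.

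Among H2A probes, that of Hist1h2ac shared at most 8 bases with any other member. Sham mice lay at -2.10, -1.71 and -0.87, the 2 Gy mice at -0.53, -0.26, -1.64, -0.56 and -0.44, and the 8 Gy mice at -1.72, -0.37 and 0.28. The low value at 2 Gy is replicate 3 and the low value at 8 Gy replicate 1, and both lie within the sham range. It rose 2.32-fold at 8 Gy (log2 1.21 ± 0.33, adjusted p = 0.0338), with a log2 fold change of 1.39 (adjusted p = 0.0106) without 0 Gy replicate 5 and 1.46 (adjusted p = 0.00559) without 8 Gy replicate 1.

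Further H2A probes that rose at 8 Gy were Hist2h2ac (1.14 ± 0.32 on the log2 scale, adjusted p = 0.0405), Hist1h2aa (1.10 ± 0.29, 0.0292), Hist1h2af (A_52_P165633, 1.09 ± 0.29, 0.0308), Hist1h2ae (0.97 ± 0.28, 0.0416) and Hist3h2a (A_52_P184352, 0.91 ± 0.27, 0.0439). Hist1h2aa is known as a testis H2A, but its probe shares 44 bases with that of Hist1h2af, as shown above, and their values ran side by side: sham mice at 6.11, 7.17 and 8.13 for the Hist1h2aa probe and at 6.11, 7.19 and 8.15 for the Hist1h2af probe. Which of these genes gave the signal cannot be told apart. Hist2h2aa1, a member of the Hist2 pair of H2A genes, had 1.21 ± 0.41 and an adjusted p of 0.0627. Its probe lies at chr3:96119529-96119588 on the plus strand of mm7. The probe named Hist2h2ac lies close by, at chr3:96119778-96119837 on the same strand, and is listed for 4 RefSeq transcripts. The gene Hist2h2ac itself is on the minus strand (GRCm38), so the signal of that probe cannot be assigned to Hist2h2ac.

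Probes of the same name did not always give the same value. The second Hist1h2af probe, listed for 4 RefSeq transcripts, had 0.65 ± 0.30 at 8 Gy (adjusted p = 0.150). Hist3h2a has 3 probes: besides the called one, A_52_P615375 had 0.58 ± 0.27, and A_51_P441377 had 0.37 ± 0.48. In the mm7 positions of the files the latter runs on the minus strand and the other two on the plus strand. Its sham values of 0.99, 1.82 and 3.54 and 2 Gy values of 4.13, 3.79, 2.81, 2.74 and 2.50 overlapped, and its log2 fold change was 1.03 ± 0.48 at 2 Gy, above that at 8 Gy.

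Among H2B probes, A_52_P559748, named Hist1h2bc, lay at -5.18, -3.35 and -1.34 in sham mice, at -1.36, -1.68, -2.52, 0.32 and -1.99 at 2 Gy, and at -1.80, -0.54 and 0.32 at 8 Gy. It was well above background in 3 of 7 sham mice and in all 5 and 6 irradiated mice, and the highest sham value was again replicate 5. It passed the test as higher at 8 Gy (fitted log2 fold change 2.31 ± 0.51, adjusted p = 0.0159). Since most sham values were not well above background and the irradiated arrays carried it past the filter, the size of this change and its rank among the members are uncertain. This probe lies at chr13:21203334-21203393 (mm7, plus strand), while the other Hist1h2bc probe lies at chr13:23058152-23058211, and the files list no RefSeq transcript for it, so its gene is uncertain. The other probe had a log2 fold change of 1.01 ± 0.38, with an adjusted p of 0.0858.

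Hist1h2be, well above background in 6 of 7 sham mice and in every irradiated mouse, also rose. Sham mice lay at -3.84, -2.25 and -1.37, the 2 Gy mice at -0.78, -0.60, -2.36, -0.56 and -0.90, and the 8 Gy mice at -2.16, -0.69 and -0.43. All irradiated mice but 2 Gy replicate 3 and 8 Gy replicate 1 lay above every sham mouse. The rise at 8 Gy was 2.82-fold (log2 1.50 ± 0.41, adjusted p = 0.0353). Without 0 Gy replicate 5 the log2 fold change was 1.72 (adjusted p = 0.0110), and without 8 Gy replicate 1 it was 1.75 (adjusted p = 0.0101).

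The probe named Hist1h2ba, a gene known as the testis H2B, rose by 1.22 ± 0.34 on the log2 scale (adjusted p = 0.0389). Its longest unbroken run shared with another member was 14 bases, with a Hist1h2bk probe. Whether its signal came from Hist1h2ba or from another H2B gene was not tested. The probes named Hist1h2bk (A_52_P388224) and Hist3h2bb, whose sequences are printed above, had 1.15 ± 0.36 (0.0495) and 1.14 ± 0.35 (0.0497), and the overlapping Hist1h2bm probe 1.14 ± 0.36 (0.0504). Hist2h2be, known for a polyadenylated message in non-dividing cells, was an exception within its class. Sham mice lay at -1.25, 0.25 and 0.51, the 2 Gy mice at 0.52, 0.02, -0.70, 0.62 and 0.11, and the 8 Gy mice at -0.25, 0.19 and 0.47. Its log2 fold change was 0.08 ± 0.30 at 8 Gy and 0.03 ± 0.30 at 2 Gy, and its level overlapped fully between sham and irradiated mice apart from 0.52 and 0.62 at 2 Gy, just above the highest sham value.

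**Figure D2:**
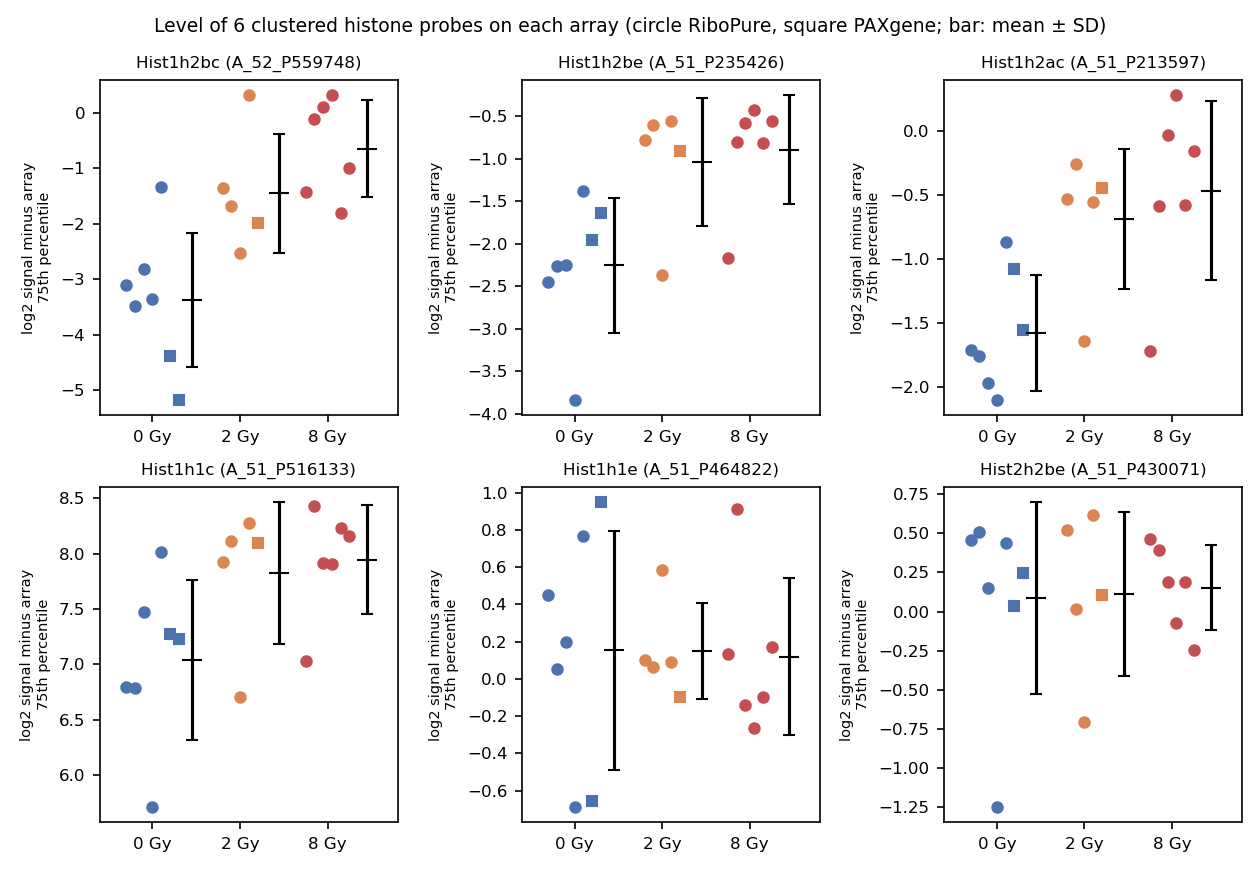
Log2 signal relative to the array's 75th percentile for 6 probes, 1 point per mouse by dose (circles RiboPure, squares PAXgene), with mean and SD bars beside each group. The top panels show 3 probes called at 8 Gy, and the lower panels show Hist1h1c, which was not called, beside Hist1h1e and Hist2h2be, whose group means lie close together.

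H3 probes had the lowest class median at 8 Gy, 0.66. Hist1h3d and Hist2h3c1 had log2 fold changes of 0.66 ± 0.26 and 0.66 ± 0.27 at 8 Gy, with adjusted p of 0.0981 and 0.106. Hist1h3a, the probe with the whole stem-loop, was well above background in only 5 of 7 sham mice, 1 of 5 mice at 2 Gy and 2 of 6 at 8 Gy, so no fold is given for it. H4 probes lay close together, from 0.92 to 1.11. Hist1h4a (1.10 ± 0.34, adjusted p = 0.0497), Hist1h4d (A_51_P136097, 1.10 ± 0.33, 0.0479) and Hist2h4 (1.09 ± 0.33, 0.0475) rose, and Hist1h4f had 1.11 ± 0.36 with an adjusted p of 0.0584. Hist2h4 lay at 3.09, 4.22 and 5.19 in sham mice, at 4.82, 4.98, 3.85, 5.42 and 5.86 at 2 Gy, and at 4.45, 5.18 and 5.58 at 8 Gy, with 0 Gy replicate 5 as the highest sham value.

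After 2 Gy the members lay in the same direction, but none passed the test. Their median log2 fold change was 0.79, against 0.03 over all probes, and 37 of 38 were above 0. With limma, 0 of 38 passed, in a comparison where 0.0862% of all 22047 probes passed. An unadjusted p under 0.05 was found for 23 of the 38 members and for 19.8% of all probes. The smallest adjusted p was 0.108, of the Hist1h2bc probe A_52_P559748, whose sham level was mostly not well above background. Hist2h2aa1 had a log2 fold change of 1.28 ± 0.41, Hist1h2be 1.25 ± 0.41 and Hist1h2ak 1.04 ± 0.44. Both comparisons use the same sham mice, so their like direction is not independent. Without 0 Gy replicate 5, 12 members and 1319 of all probes passed, and without 2 Gy replicate 3, 1 and 151.

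No member separated the doses of 8 and 2 Gy: 0 of 38 members and 0% of all probes passed. An unadjusted p under 0.05 was found for 0 members and for 3.47% of all probes. The members' median difference was 0.22, against 0.06 over all probes, with 34 of 38 above 0. The members' standard errors in this comparison were 0.27 to 0.54. The median fell to -0.02 without 2 Gy replicate 3 and to -0.05 after normexp background correction, so no direction between the doses is given.

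The kit contrast, PAXgene against RiboPure, rests on 3 PAXgene arrays. With limma, 0 of 38 members and 6.17% of all probes passed. An unadjusted p under 0.05 was found for 11 of the 38 members and for 21.2% of all probes. The members' median was 0.48, against 0.04 over all probes, with 34 of 38 above 0. The Hist1h2bc probe A_52_P559748 was among the 4 below 0, and both PAXgene sham mice gave its lowest values. Without 0 Gy replicate 5, 3 members and 1555 of all probes passed.

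**Figure D3:**
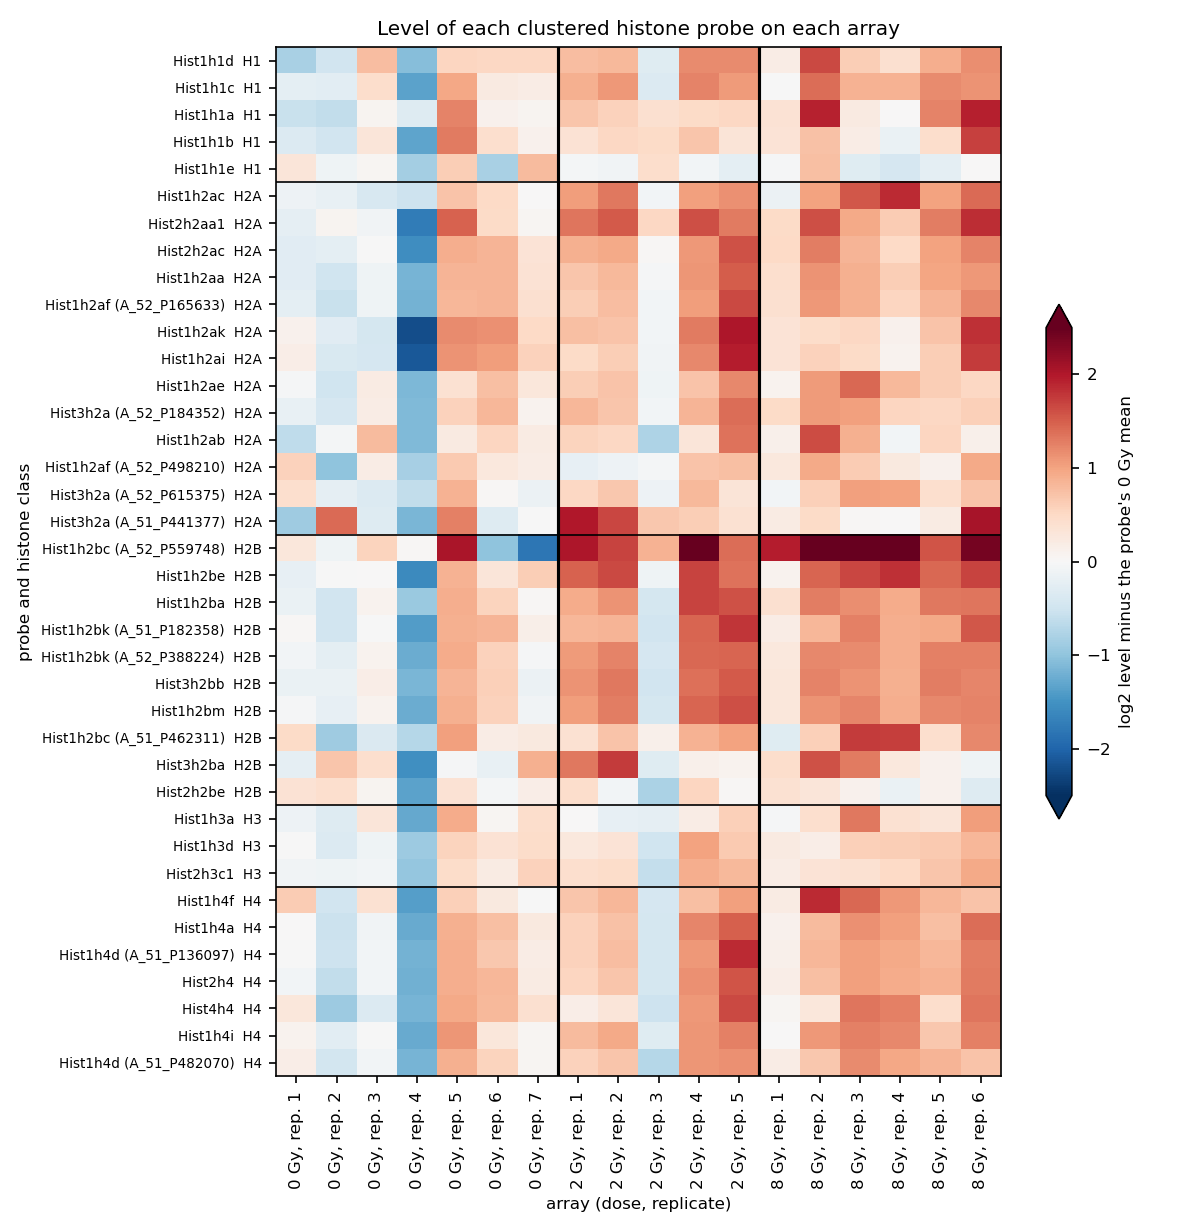
Log2 level of each of the 38 probes on each of the 18 arrays, minus the probe's sham mean; rows are ordered by histone class and by change at 8 Gy, red is higher and blue lower, and thick lines part the doses. Columns are mostly of 1 colour: 0 Gy replicate 4 is low and 0 Gy replicate 5 high in nearly all rows, and 2 Gy replicate 3 and 8 Gy replicate 1 have the lowest median of their groups, -0.26 and 0.20.

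The members moved together from array to array, also within a dose. Taking for each array the median of the 38 members relative to their sham means, the sham mice ran from -1.17 (replicate 4, with 1 of 38 members above its sham mean) to 0.89 (replicate 5, with 37 of 38). The 2 Gy mice lay at 0.69, 0.75, -0.26, 1.08 and 1.28, and the 8 Gy mice at 0.20, 1.03, 1.03, 0.73, 0.79 and 1.23. The mean was 0.71 ± 0.59 (SD, n = 5) at 2 Gy and 0.84 ± 0.36 (SD, n = 6) at 8 Gy above the sham mean, and the SD among the 7 sham mice was 0.66. Leaving out 0 Gy replicates 4 and 5 and 2 Gy replicate 3 together, a choice made after seeing the data, gave 25 called members at 8 Gy and 22 at 2 Gy, with medians of 0.96 and 1.02. Calls over all probes rose in the same fits, to 4927 at 8 Gy and 3292 at 2 Gy.

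Slides that held more than 1 dose are compared within the slide. On slide 1, 8 Gy replicates 3 and 4 against 0 Gy replicate 1 had 35 of 38 members higher (median difference 1.01, all probes 0.16). On slide 2, 2 Gy replicates 1 and 2 against 0 Gy replicate 2 had 37 higher (1.18, all probes 0.05), and on slide 5, with 1 PAXgene mouse each, 2 Gy replicate 5 against 0 Gy replicate 6 also had 37 (0.74, all probes 0.05). Slide 4 ran the other way: 2 Gy replicate 3 against 0 Gy replicate 5 had 0 of 38 higher (-1.03, all probes -0.44), and both are arrays named above as standing apart. The same scan day held 8 Gy replicate 6, which had 32 of 38 members above 0 Gy replicate 5, with a median difference of 0.36. On slide 7, 8 Gy replicates 1, 2 and 5 against 2 Gy replicate 4 had 6 of 38 higher (-0.47, all probes -0.08). The scan day of slide 4 went the other way: 8 Gy replicate 6 against 2 Gy replicate 3 had 37 of 38 higher (1.44, all probes 0.42). With the slide as a random block 1 member was called at 8 Gy, and with the scan day 2, with medians of 0.98 and 0.99, while 906 and 1143 of all probes passed.

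Marker genes of blood cell types were set beside the histone level. Of the platelet markers, all 7 lay above 0 at 8 Gy, with a median log2 fold change of 1.05, and 1 passed, Pf4 (platelet factor 4, 1.05 ± 0.30, adjusted p = 0.0410, a call kept in 10 of 32 alternatives). Their mean level per array was between -1.08 and 1.04 in sham mice, between -0.26 and 1.44 at 2 Gy, and at 8 Gy 0.19 at the lowest and 1.36 at the highest. Replicate 4 was the lowest and replicate 5 the highest sham mouse in this list as in the histones, and 2 Gy replicate 3 and 8 Gy replicate 1 were the lowest of their groups in both. The same sham extremes, and 2 Gy replicate 3 as lowest, also held for the NK cell, cycling cell and outside-cluster variant lists, so they are not particular to platelets. Erythroid markers had a median of 0.85, with 7 of 7 above 0 and 0 called. Their list includes the globin gene Hba-a1, although globin RNA was removed before labelling, and the part of that step in its level was not tested. Among sham mice replicate 1 was lowest and replicate 3 highest, and 2 Gy replicate 3 and 8 Gy replicate 1 were the lowest of their groups in this list too. Their per-array range was -0.85 to 0.94 in sham mice, -0.21 to 0.99 at 2 Gy and 0.12 to 1.41 at 8 Gy. In whole blood, more cells of a type and more RNA per cell cannot be told apart, and the part of these cell types in the histone values was not tested.

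Neutrophil markers rose in 7 of 7 genes at 8 Gy, with a median of 2.31, such as Il1r2 (4.05 ± 0.75, adjusted p = 0.00898), and B cell markers fell in 8 of 8, with a median of -3.62, such as Cd79a (-2.75 ± 0.48, 0.00802). The lowest and highest neutrophil levels were -0.68 and 2.01 in sham mice, 0.43 and 3.26 after 2 Gy, and 1.26 and 3.41 after 8 Gy. None of the T cell (8), NK cell (5) or monocyte (6) markers passed at 8 Gy, with medians of -0.10, -0.02 and 0.30.

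**Figure D4:**
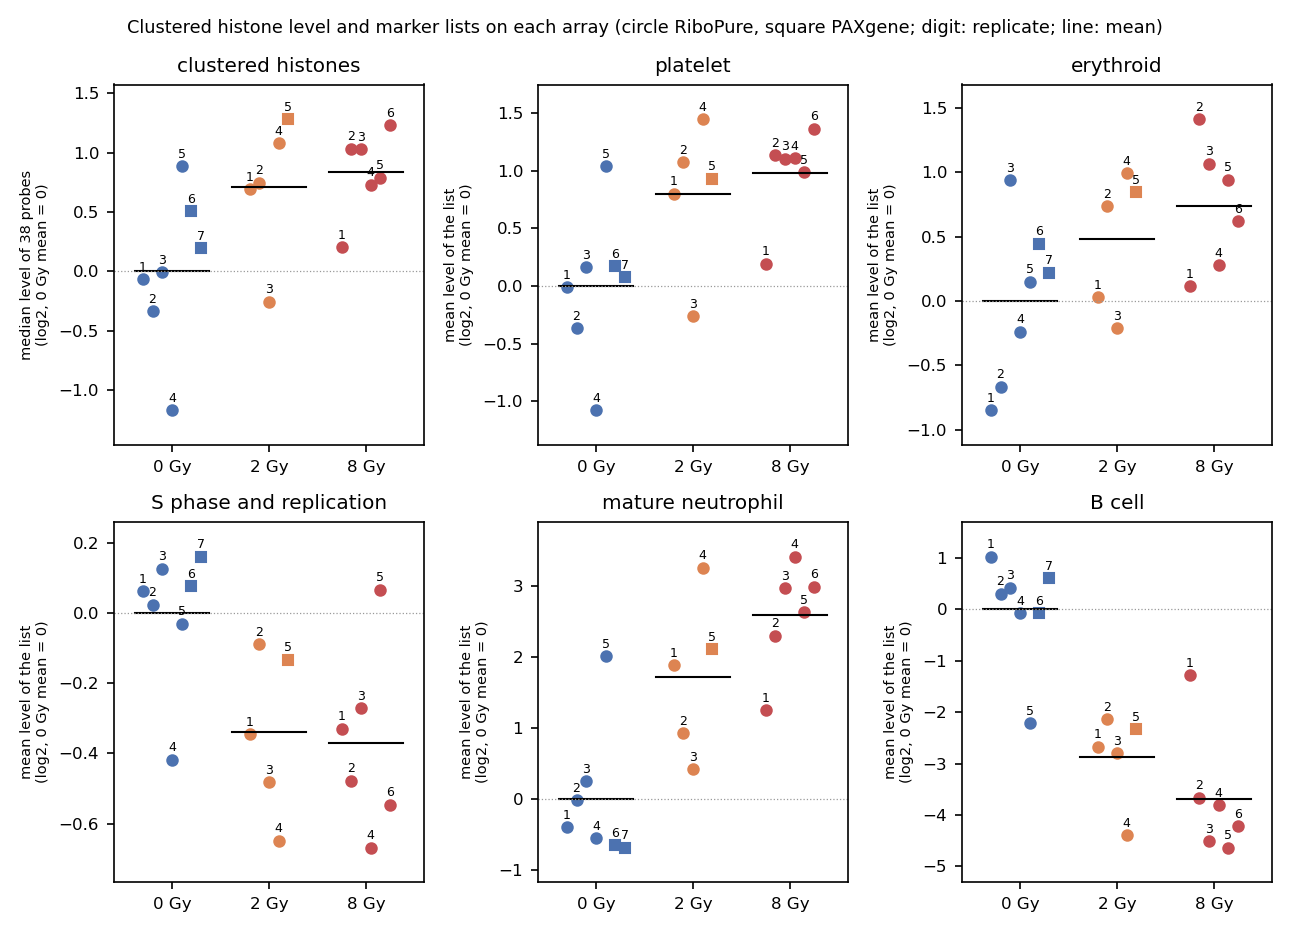
Median level of the 38 clustered histone probes and mean level of 5 marker lists on each array, as log2 relative to the sham mean, by dose, with the replicate number beside each point (circles RiboPure, squares PAXgene) and a line at each group's mean. Sham replicate 4 is lowest and replicate 5 highest in the histone and platelet panels, and 2 Gy replicate 3 and 8 Gy replicate 1 are the lowest of their groups in the histone, platelet, erythroid and neutrophil panels. The S phase panel has its lowest sham mouse in replicate 4 too, and its 2 Gy and 8 Gy medians lie at -0.35 and -0.40.

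Genes of DNA replication, which in dividing cells rise with the clustered histones in S phase, gave no call as higher. Of 22 measured, 3 fell at 8 Gy: Ung (uracil-DNA glycosylase, -1.40 ± 0.35, adjusted p = 0.0246), Cdt1 (a licensing factor, -0.79 ± 0.20, 0.0252) and Mcm5 (a subunit of the replicative helicase, -0.77 ± 0.23, 0.0463). The list's median was -0.37, with 5 of 22 above 0, against 1.01 for the histones. Cycling cell markers had a median of 0.51, with 7 of 7 above 0 and 0 called, among them Tyms (0.55 ± 0.22) and Mki67 (0.68 ± 0.38); Tyms is also in the replication list.

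Histone genes outside the clusters have mostly polyadenylated messages. Of 16 listed, 12 were measured, and 3 rose at 8 Gy: H2afy3 (1.60 ± 0.45, adjusted p = 0.0385), H2afj (an H2A variant, 1.15 ± 0.30, 0.0284) and H3f3a (which encodes the replacement histone H3.3, 0.95 ± 0.29, 0.0492). The median of the 12 was 0.40, with 8 above 0, and H2afy (macroH2A) had -0.44 ± 0.18, with an adjusted p of 0.110. H2afj lay at a mean level of 7.65 ± 0.79 (SD, n = 7) in sham mice, 8.45 ± 0.65 (n = 5) at 2 Gy and 8.50 ± 0.32 (n = 6) at 8 Gy, and kept its call in 15 of 32 alternatives.

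Factors that make or destroy histone messages were taken next. Of 20 measured, 1 rose at 8 Gy, Lsm10 (a subunit of the U7 particle that cleaves histone messages, 0.74 ± 0.22, adjusted p = 0.0456), and 0 fell. The list's median was -0.24, with 6 of 20 above 0. Npat, the coactivator of histone gene transcription, had -1.01 ± 0.32 with an adjusted p of 0.0517, and lay at 0.16 after normexp background correction. Slbp itself had -0.06 ± 0.25 (adjusted p = 0.895). Among 17 histone chaperones, which carry histones to DNA, 2 fell: Ssrp1 (a subunit of FACT, -0.78 ± 0.22, 0.0366) and Npm1 (nucleophosmin, -0.84 ± 0.22, 0.0288), and the median was 0.04.

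Sequence features not used to choose the members were set beside their change at 8 Gy. The 14 probes listed for several RefSeq transcripts had a median log2 fold change of 1.10 (6 called) and the other 24 one of 0.99 (8 called). Probes that share 30 or more bases with another member (8) had 1.10 and the other 30 had 1.00. Of the 3 probes with stem-loop bases, Hist1h2ae rose and Hist1h2ab had 0.76 ± 0.36 (adjusted p = 0.158), while Hist1h3a was mostly not well above background. Counted by sequence group, 13 of 34 groups held a called member. Near-twins without an unbroken run of 30 bases, such as the Hist3h2bb and Hist2h4 probes, count as groups of their own. They are also among the other 30 probes.

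Promoter sequence from RefSeq (GRCm38.p6) was at hand for 30 promoters of 29 member genes, taken as the 250 bases before each start and searched on both strands. The TATA box TATAAA occurred in 53.3% of these and in 12.4% of all 32851 promoters, the CCAAT box CCAAT in 86.7% and 33.8%, and the octamer ATTTGCAT, known from H2B promoters, in 33.3% and 1.60%. A pair is shown because their probes lay apart in the values above: Hist1h2ac, which rose, and Hist1h1e, which lay at 0. Both are on the minus strand of chromosome 13, at chr13:23683960-23684209 and chr13:23622559-23622808, and capitals mark the matches on either strand.
Hist1h2ac: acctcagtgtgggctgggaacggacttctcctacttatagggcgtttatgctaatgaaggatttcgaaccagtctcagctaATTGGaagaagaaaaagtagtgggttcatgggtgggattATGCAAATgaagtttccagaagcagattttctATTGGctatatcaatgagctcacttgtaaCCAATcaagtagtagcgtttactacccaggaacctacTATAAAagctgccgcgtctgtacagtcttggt
Hist1h1e: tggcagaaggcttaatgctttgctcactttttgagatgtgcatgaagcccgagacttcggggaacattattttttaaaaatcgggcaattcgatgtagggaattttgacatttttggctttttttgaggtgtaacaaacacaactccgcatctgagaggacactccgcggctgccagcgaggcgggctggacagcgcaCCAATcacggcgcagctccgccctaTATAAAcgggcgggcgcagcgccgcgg
The Hist1h2ac window held 1 TATA box, 3 CCAAT boxes and 1 octamer, and that of Hist1h1e 1 TATA box, 1 CCAAT box and 0 octamers. The Hist1h1c and Hist1h1d windows also held 0 octamers, and their probes had fitted log2 fold changes of 1.00 and 1.02 at 8 Gy. These are matches of letters, and binding was not measured. The pair was chosen by its values, and a link between the matches and the change at 8 Gy was not tested.

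The other 6 members did not reach 5 arrays. They are both further probes of Hist1h1d, the probe of Hist1h1t (a testis linker histone), both probes of Hist2h2aa2, and 1 of the 2 Hist4h4 probes. Hist1h1t and 1 Hist1h1d probe were well above background on 1 array each and the other four on 0, so these were near or below background and no fold is given for them.

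**Figure D5:**
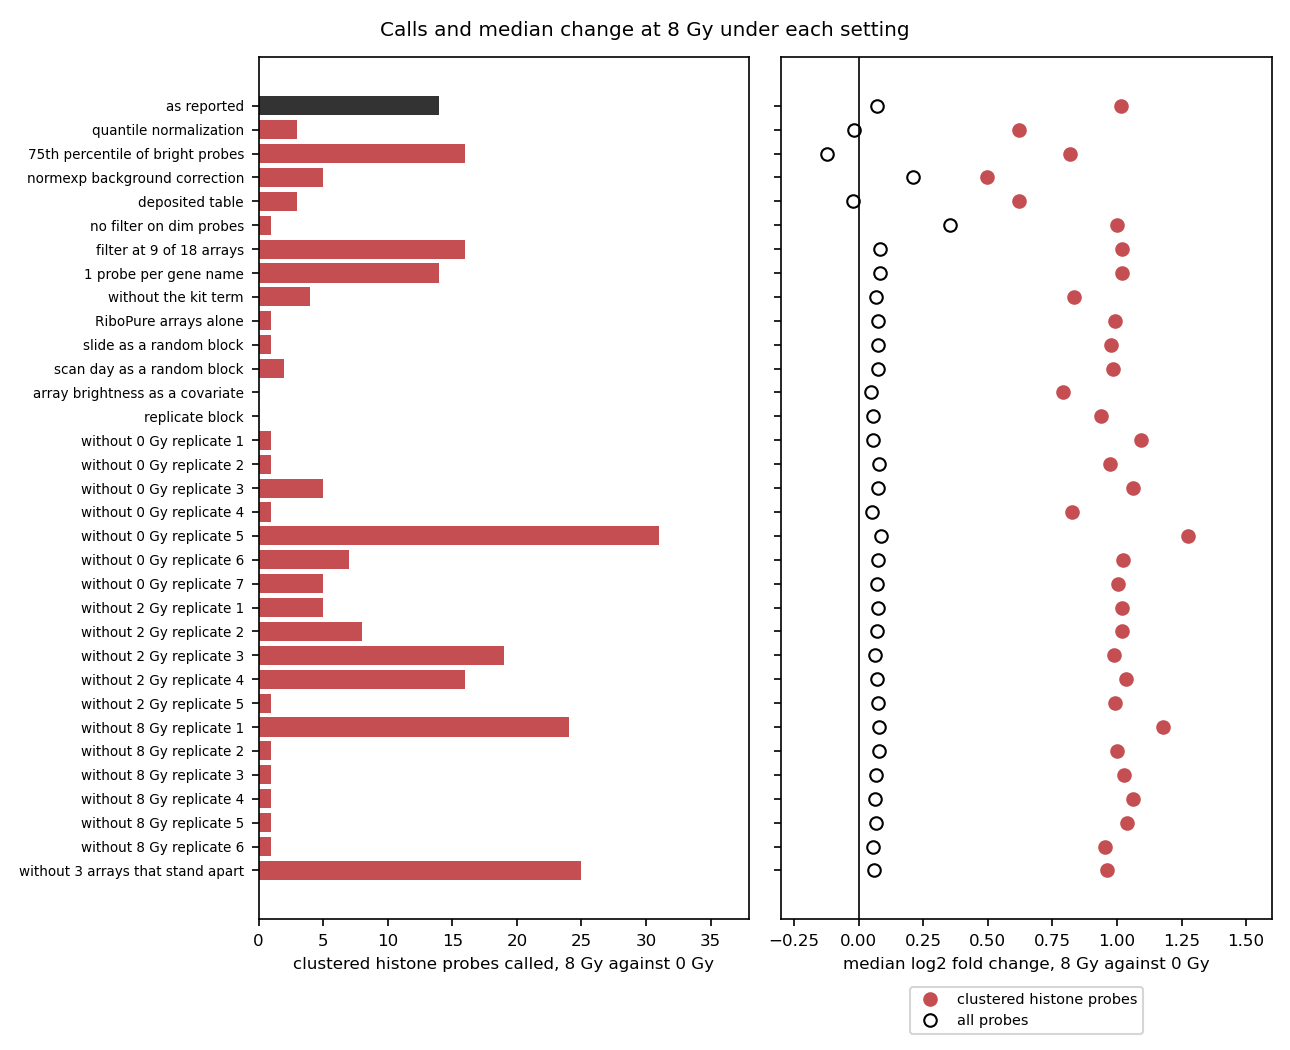
Left, number of the 38 clustered histone probes called at 8 Gy against 0 Gy as reported and under each alternative setting; right, their median log2 fold change (filled) beside that of all probes (open). Counts run from 0 to 31, while the members' median lies above that of all probes in each setting shown.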

How the data were processed

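Blood RNA of 18 mice was measured on Agilent 1-colour arrays, 1 per mouse. Per the file headers, the scanner intensity values were made with Agilent Feature Extraction 9.5.3.1, which subtracted background and detrended each array. A table of linear intensity values deposited by the authors, whose columns are quantile-like with medians near 20.7, served as an alternative. The submitters' processing notes name limma without a version, and its step is not given in the sources used here.

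Non-control spots without outlier flags were averaged per probe on the log2 scale, and each array's 75th percentile of the processed signal was subtracted. Probes had to be well above background on 5 or more of the 18 arrays. limma 3.58.1 (R 4.3.3, statmod 1.5.0) fitted dose and RNA kit over all 18 arrays, with Benjamini-Hochberg adjustment over all 22047 probes, two-sided, at 0.05. The test was checked on simulated data. The kit contrast could be fitted for 22046 probes. Replicate numbers were not used to pair the mice. Of same-numbered pairs, 7 of 16 correlated above 0.1 (median 0.07), against 25 of 91 pairs with different numbers (median -0.02). Of the 18 arrays, 2 correlated most with an array of their own number. These counts cannot exclude pairing. The labels describe the samples as biologically distinct. The number of arrays limits the precision.

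Members and gene lists were chosen with earlier results of these data known. Named by rule were, per contrast, up to 8 called members in each direction, in each class the member with the highest mean and that with the smallest p, and up to 4 genes per list with the smallest p at 8 Gy. Other genes named, among them Hist1h1e, Hist2h2be, Hist2h2aa1, Hist3h2a, Hist1h3a, Slbp and further H1, H2A and H4 probes, were chosen after their values were seen. Symbols of 36 members were matched through accessions and of 8 through older symbols. Probe positions are those of build mm7 in the files, and promoters come from RefSeq GRCm38.p6. Alternatives covered scaling, background correction, the filter, the deposited table, the kit, slide, scan day, brightness, replicate block and single arrays.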

Additional observations from a re-analysis of the deposited data

Results flagged for a closer look

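In each dose group the highest and the lowest array were compared with their nearest neighbour by Dixon's criterion, in 84 tests, of which 18 marked an array. Chance marks about 1 in 20 groups, and members that share sequence or move together are not independent tests. The array 2 Gy replicate 3 was the lowest of its group in 8 probes: Hist1h1c at 6.70 (next 7.92), Hist1h1d at -2.24, Hist1h2ac at -1.64, Hist1h2be at -2.36, Hist1h2bk at 6.27, Hist1h2bm at 6.27, Hist1h4f at 5.86 and Hist3h2bb at 6.22. The array 8 Gy replicate 1 was the lowest of its group in Hist1h1c at 7.03 (next 7.91), Hist1h2be at -2.16, Hist1h2bk at 6.97, Hist1h2bm at 6.99 and the platelet list at 0.19 (next 0.99), and the highest in the B cell list at -1.28 (next -3.66). The array 0 Gy replicate 5 was the lowest sham array in the B cell list at -2.21 (next -0.08) and the highest in the neutrophil list at 2.01 (next 0.26). The array 0 Gy replicate 4 was the lowest sham array in the S phase list at -0.42 (next -0.03) and in the list of histone message processing at -0.38 (next -0.04).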

How the results depend on the processing

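The direction of the 14 called members held in every alternative that tested them, but their number did not. At 8 Gy against 0 Gy, 14 members passed as reported (2201, counts over all probes in brackets). After quantile normalization 3 passed (1417), with the authors' deposited values 3 (1402) and after normexp 5 (3591). With no filter on dim probes 1 member passed (695), without the kit term 4 (2683) and with RiboPure arrays alone 1 (548). Slide as a random block gave 1 (906), scan day 2 (1143) and array brightness as a covariate 0 (0). The replicate block gave 0 (450), and 25 passed without the 3 arrays that stand apart (4927). After normexp and without the kit term, more of all probes passed than as reported, but fewer members. In these fits members were not called more often than probes in general. Leaving out single arrays gave 1 to 31 (481 to 4431). The members' count changed little with the 75th percentile over bright probes, 16 (3190), the stricter filter, 16 (2399), and 1 probe per name, 14 (1712). At 2 Gy single omissions gave 0 to 12 calls (1319 where 12 passed) and the 3 arrays together 22 (3292). The kit contrast gave 0 to 3 (1555 where 3 passed) and 4 (2476). At 8 against 2 Gy the count was 0 in each alternative, the replicate block included. The median of all probes at 8 Gy was 0.07 as reported, -0.12 scaled to bright probes and 0.21 after normexp. After normexp Chaf1a lay at 0.29 and Npat at 0.16, against -0.50 and -1.01, and the cause was not tested. Whether replicate numbers pair the mice was not settled, so no conclusion is drawn from the replicate block. Without the kit term or with RiboPure alone the kit contrast could not be fitted.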
